A study of Mus musculus with 6 samples.

Results

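The genes described here are 8 genes of cholesterol synthesis: the enzymes Hmgcs1, Idi1, Fdft1, Sqle, Lss and Dhcr7 and the regulators Srebf2 and Insig1. They were taken by gene symbol from a table of read pair counts for 24421 genes. All 8 were found, and all 8 were among the 13977 genes that passed the filter on low counts and were tested. The libraries were made from mouse kidney cortex, 3 from mice labelled PT-I-PpoI and 3 labelled Wild-Type. PT-I-PpoI mice express I-PpoI, a homing endonuclease that makes double-strand breaks at its long target sequence, in the epithelial cells of the proximal tubule. The promoter that drives the enzyme, the strain, the sex and the age of the animals are not given in the sources used here. Whether the libraries of a group were made from separate mice is not stated, and p-values therefore cover only the spread between these libraries, which may be technical.

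The library names come in a plain form, where the final number follows directly (replicate 1 of wild type and replicates 1 and 2 of PT-I-PpoI), and a hyphenated form, where a hyphen precedes it (replicates 2 and 3 of wild type and replicate 3 of PT-I-PpoI). What the 2 forms stand for is not stated, and no label names a batch. Each gene is therefore given in both comparisons, PT-I-PpoI against wild type and hyphenated against plain names. The plain form holds 1 wild type library only, and the hyphenated form 1 PT-I-PpoI library only.

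Cholesterol is built from acetyl-CoA. The first stage makes mevalonate and then isoprenoid units, which are joined into farnesyl diphosphate, a precursor of sterols, ubiquinone, dolichol and protein prenyl groups. The second stage joins farnesyl units into squalene, closes the rings and modifies the product to cholesterol. SREBP2, the protein of Srebf2, is held in the endoplasmic reticulum by INSIG proteins when sterols are plentiful. When sterols fall, it moves to the Golgi apparatus, is cleaved, and enters the nucleus to switch on most of these enzymes and Insig1 itself.

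Totals ran from 13.6 to 20.9 M read pairs per library. On the first principal component of all genes (43.1% of the variance) the plain libraries lay below the hyphenated ones, and on the second wild type replicate 1 stood apart at 29.2, with the other 5 libraries between -10.5 and 0.13. All 8 of the listed proximal tubule markers were detected, with a summed level of 8332 to 12032 CPM (counts scaled to the TMM-adjusted total of the library) in PT-I-PpoI against 10768 to 14671 CPM in wild type. By name form this sum was 12032 to 14671 CPM in hyphenated and 8332 to 10768 CPM in plain libraries, without overlap. The log2 fold change was below 0 for 8 of 8 markers between PT-I-PpoI and wild type. Between hyphenated and plain names it was above 0 for 8 of 8. The summed level of 5 thick ascending limb markers was 5827 to 5952 CPM in PT-I-PpoI against 3987 to 4429 CPM in wild type. That of 6 collecting duct markers was 603 to 813 CPM in PT-I-PpoI against 484 to 499 CPM in wild type. Markers of the adrenal cortex, a neighbouring tissue that makes steroids, summed to 4.46 to 6.51 CPM over the 6 libraries, with Cyp11b1, Cyp11b2 and Nr5a1 at 0 in all of them. Most of this sum came from 1 gene, Star, at 4.32 to 5.82 CPM. Adipocyte markers, 6 of 6 with counts, summed to 5.93, 18.9 and 34.9 CPM in replicates 1 to 3 of PT-I-PpoI and to 56.2, 21.1 and 13.5 CPM in those of wild type, so that wild type replicate 1 was the highest library. In bulk tissue, fewer cells of a type and less RNA per cell cannot be told apart.

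The sequences before the start sites of Hmgcs1, Idi1 and Insig1 are shown because these members varied most between libraries. Each is the 250 bases before the start of the gene, from RefSeq (GRCm38.p6, plus strand), at chr13:119690101-119690350 for Hmgcs1, chr13:8885356-8885605 for Idi1 and chr5:28071162-28071411 for Insig1. Capitals mark the letters TCACNCCAC or CACNCCAC, forms of the sterol regulatory element to which SREBP proteins bind, and CCAAT, the site of the factor NF-Y, on either strand (CCAAT on the other strand reads ATTGG here, and CACGCCAC reads GTGGCGTG).
Hmgcs1: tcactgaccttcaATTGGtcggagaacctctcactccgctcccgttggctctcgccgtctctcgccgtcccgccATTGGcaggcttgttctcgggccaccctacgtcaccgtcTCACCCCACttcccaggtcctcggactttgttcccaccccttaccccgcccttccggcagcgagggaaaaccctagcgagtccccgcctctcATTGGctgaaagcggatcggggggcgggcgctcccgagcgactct
Idi1: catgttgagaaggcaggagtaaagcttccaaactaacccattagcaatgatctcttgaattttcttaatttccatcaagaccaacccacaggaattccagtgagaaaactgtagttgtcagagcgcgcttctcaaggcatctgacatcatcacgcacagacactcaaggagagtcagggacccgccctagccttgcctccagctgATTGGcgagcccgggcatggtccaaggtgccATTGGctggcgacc
Insig1: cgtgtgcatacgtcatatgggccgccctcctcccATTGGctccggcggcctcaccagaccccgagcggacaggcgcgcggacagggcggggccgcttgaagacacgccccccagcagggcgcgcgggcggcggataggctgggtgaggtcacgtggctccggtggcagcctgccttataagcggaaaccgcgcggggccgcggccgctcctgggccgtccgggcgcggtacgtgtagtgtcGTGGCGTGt

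The search covered windows of 250 bases before to 50 bases after the start, which RefSeq gave for 6 of the 8 members and did not give for Fdft1 and Sqle. TCACNCCAC was found in the window of Hmgcs1, starting 137 bases before the start site. Of all 27025 genes with a window, 1.44% held it. The shorter CACNCCAC, which lies within it, was found in Hmgcs1 and Insig1 and in 7.12% of all genes. CCAAT was found in 6 of 6 members and in 41.1% of all genes. For Dhcr7 the match lay at a RefSeq start other than that of the count table. A match describes the letters only, and its absence says nothing about binding.

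Levels per length were compared in RPKM (CPM divided by the exon length in kilobases), as mean ± SD over the 6 libraries. Hmgcs1, which makes HMG-CoA in the cytosol, was the highest at 98.3 ± 22.1 RPKM. Sqle, the squalene epoxidase and a rate-controlling step of the second stage, followed at 21.8 ± 1.92 RPKM. Srebf2 was at 15.5 ± 1.33 RPKM and Insig1 at 12.2 ± 3.29 RPKM. Fdft1, the squalene synthase, was at 8.51 ± 0.74 RPKM, and Dhcr7, which reduces 7-dehydrocholesterol to cholesterol, at 6.71 ± 0.86 RPKM. Idi1, the isomerase of the isoprenoid units, was at 4.63 ± 0.94 RPKM, and Lss, which closes the sterol rings, at 2.84 ± 0.21 RPKM.

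The ranges over libraries of Hmgcs1 and Sqle, of Sqle and Srebf2, and of Idi1 and Lss did not overlap. Those of Srebf2 and Insig1, Insig1 and Fdft1, Fdft1 and Dhcr7, and Dhcr7 and Idi1 did. Within each library, Fdft1 was nevertheless above Dhcr7, and Dhcr7 above Idi1. Fdft1 and Dhcr7 were close in wild type replicates 2 (7.86 against 7.82 RPKM) and 3 (7.57 against 7.55 RPKM). The order of Srebf2 and Insig1, and that of Insig1 and Fdft1, changed between libraries.

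**Figure D1:**
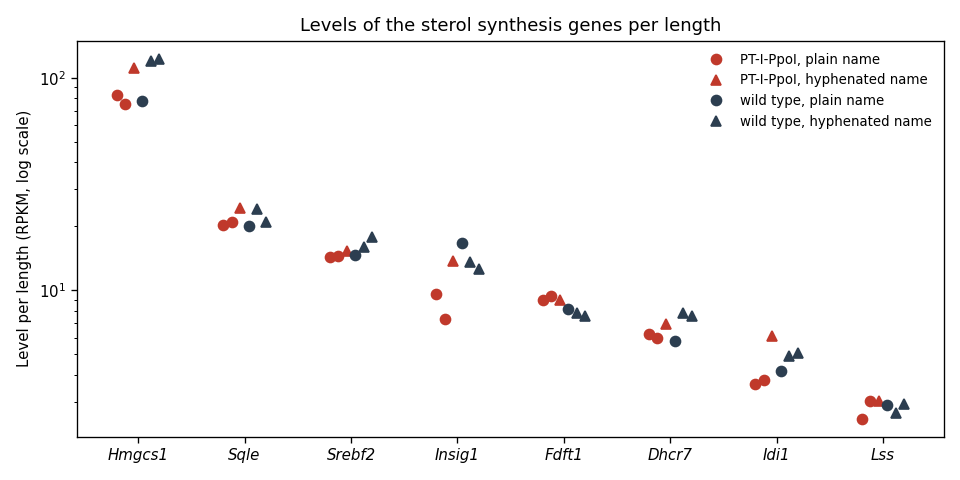
Level of each gene per length (RPKM, log axis) in each of the 6 libraries, ordered by mean; colour gives the group and marker shape the name form. Hmgcs1 stands above the other 7 in every library, and Lss lies between 2.50 and 3.03 RPKM.

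None of the 8 genes passed the test between PT-I-PpoI and wild type, where 0.136% of all tested genes did. The threshold was an adjusted p of 0.05 (edgeR's quasi-likelihood test, Benjamini-Hochberg over all tested genes). At an unadjusted p under 0.05, Fdft1 was higher and Insig1 lower in PT-I-PpoI, 1 of 8 each, against 6.42% of all genes higher and 5.61% lower. DESeq2 passed 0 of 8, against 1.39% of all genes. The fit that also held a term for the name form passed 0 of 8, against 0.458%. The median log2 fold change of the 8 genes was -0.11, and that of all tested genes 0.00039. With a term for the name form, the median of the 8 was -0.0082.

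Among the enzymes of the first stage, Hmgcs1 (chr13:119690351-119708260, plus strand, mm10) was at 297, 270 and 397 CPM in PT-I-PpoI replicates 1 to 3 and at 277, 430 and 440 CPM in wild type replicates 1 to 3. The groups overlapped, and the high libraries were the 3 with hyphenated names. Its log2 fold change was -0.25 ± 0.20 (SE; adjusted p = 0.619), with a 95% interval from 0.613-fold to 1.15-fold. With a term for the name form it was -0.05 ± 0.08 and the interval ran from 0.857-fold to 1.09-fold.

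Idi1 (chr13:8885606-8892396, plus strand) was at 10.4, 10.9 and 17.6 CPM in PT-I-PpoI and at 12.04, 14.1 and 14.6 CPM in wild type. PT-I-PpoI replicate 3 was the highest library and the other 2 of its group the lowest. The log2 fold change was -0.07 ± 0.20 (adjusted p = 0.901), and 0.06 ± 0.13 with the name form as a term.

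Of the enzymes of the second stage, Fdft1 (chr14:63145151-63179578, minus strand) was at 33.4, 34.7 and 33.5 CPM in PT-I-PpoI and at 30.2, 29.1 and 27.99 CPM in wild type. All PT-I-PpoI libraries lay above all wild type libraries, as the only 1 of the 8 genes whose groups did not overlap. Among all tested genes 17.0% did not overlap in either direction. The difference, 1.16-fold (log2 fold change 0.22 ± 0.08, 95% interval 1.03-fold to 1.31-fold), did not pass (adjusted p = 0.345). It was 0.17 on the log2 scale within plain and 0.23 within hyphenated libraries. The exons of Fdft1 share 773 bases with those of Ctsb, a gene on the opposite strand. The counting used no strand and left out reads that overlapped both genes, so Fdft1 may be undercounted.

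Sqle (chr15:59315092-59331193, plus strand) was at 55.8, 57.4 and 66.8 CPM in PT-I-PpoI and at 55.1, 66.3 and 57.7 CPM in wild type. Its groups had nearly the same mean, 60.03 ± 5.94 against 59.7 ± 5.86 CPM, with a 95% interval from 0.856-fold to 1.18-fold. Lss (chr10:76531605-76557139, plus strand) was at 15.8, 19.1 and 19.1 CPM in PT-I-PpoI and at 18.3, 16.8 and 18.6 CPM in wild type. It too overlapped, with an interval from 0.842-fold to 1.195-fold, and its exons share 381 bases with those of 4930483K19Rik on the opposite strand.

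Dhcr7 (chr7:143823167-143848410, plus strand) was at 17.5, 16.8 and 19.6 CPM in PT-I-PpoI and at 16.2, 22.0 and 21.3 CPM in wild type. Wild type replicate 1 was the lowest of all libraries while the other 2 wild type libraries were the highest. The log2 fold change was -0.14 ± 0.13 (adjusted p = 0.680).

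Of the regulators, Srebf2 (chr15:82147269-82204960, plus strand) was at 65.9, 66.0 and 69.9 CPM in PT-I-PpoI and at 66.9, 73.4 and 81.6 CPM in wild type. The groups overlapped only through wild type replicate 1 and PT-I-PpoI replicate 3. Its log2 fold change was -0.14 ± 0.09 (adjusted p = 0.545). Insig1 (chr5:28071412-28078662, plus strand) was at 25.5, 19.5 and 36.4 CPM in PT-I-PpoI and at 44.1, 35.9 and 33.2 CPM in wild type. PT-I-PpoI replicates 1 and 2 were the lowest libraries, wild type replicate 1 was the highest, and PT-I-PpoI replicate 3 lay within the range of the wild type libraries. The 2 libraries highest in Insig1, wild type replicate 1 and PT-I-PpoI replicate 3, were also the 2 with the highest sum of adipocyte markers (56.2 and 34.9 CPM), and the part of those markers in the Insig1 values was not tested.

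Insig1 had the largest group difference of the 8, at 0.715-fold (log2 fold change -0.48 ± 0.21, adjusted p = 0.409, unadjusted p = 0.046; 95% interval 0.515-fold to 0.993-fold). Within plain libraries PT-I-PpoI minus wild type was -0.98 on the log2 scale, and within hyphenated libraries 0.07. The difference between these values gave an adjusted p of 0.0717 (edgeR, interaction of group and name form, a test chosen after the data were seen). None of the 8 genes passed that test, which called 0.687% of all genes. Without PT-I-PpoI replicate 3, Insig1 was lower in PT-I-PpoI by -0.74 ± 0.16 on the log2 scale (adjusted p = 0.0413). It was the 1 member called when any single library was left out, in a fit that called 4.40% of all genes. That fit has no term for the name form and leaves only plain libraries in PT-I-PpoI. With every library and the name form as a term, the group value of Insig1 was -0.46 ± 0.20 (adjusted p = 0.397 by edgeR). The number of calls over all genes, 19 with every library, ran from 0, on leaving out wild type replicate 3 or either of the plain PT-I-PpoI libraries, to 625 without PT-I-PpoI replicate 3. It was 2 without wild type replicate 1 and 9 without wild type replicate 2.

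**Figure D2:**
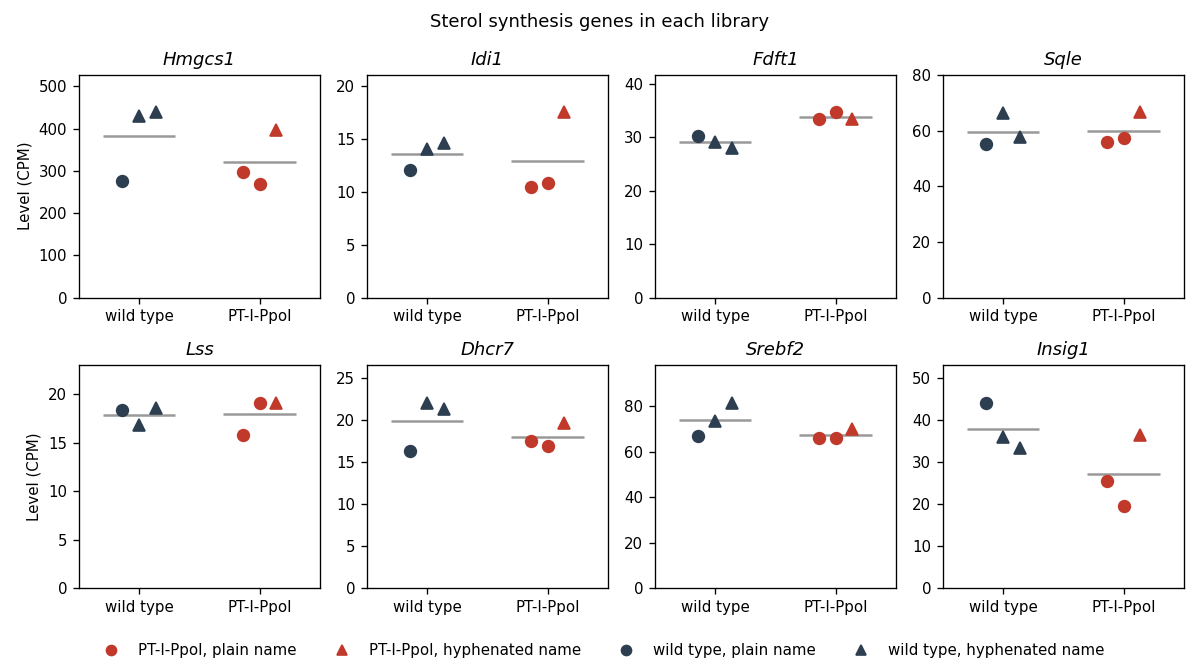
Level (CPM, axes from 0) of each gene in each library; points are libraries, coloured by group and shaped by name form, and grey lines are group means. For Hmgcs1 the 3 hyphenated libraries (397 to 440 CPM) lie above the 3 plain ones (270 to 297 CPM) in both groups, whereas Fdft1 separates by group (33.4 to 34.7 against 27.99 to 30.2 CPM).

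Between name forms, 1 of the 8 genes passed the test, Hmgcs1, which was higher in hyphenated libraries. Over all tested genes 3.06% passed in either direction (edgeR's quasi-likelihood test with the group as a term). DESeq2 likewise called 1 of 8, against 4.82% of all genes. At an unadjusted p under 0.05, 4 of 8 genes were higher in hyphenated libraries and 0 lower, against 18.8% of all genes in either direction. These were Hmgcs1, Idi1, Sqle and Dhcr7. Hyphenated and plain libraries did not overlap for these 4 genes and Srebf2, 5 of 8 against 25.5% of all genes. The median log2 fold change of the 8 was 0.18, against -0.0071 for all tested genes, and 7 of 8 lay above 0. The 8 genes were put forward with earlier results of these libraries known, so these counts describe them and are not independent evidence.

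Hmgcs1 was at 422 ± 22.6 CPM in hyphenated and 281 ± 14.1 CPM in plain libraries (SD, n = 3 each). The difference was 1.48-fold (log2 fold change 0.57 ± 0.08, adjusted p = 0.00835; 95% interval 1.32-fold to 1.67-fold), with every hyphenated library above every plain one. It held within each genotype, at 0.49 on the log2 scale within PT-I-PpoI and 0.65 within wild type. The call was kept in all 11 alternatives, among them each of the 6 fits that left out a library, with adjusted p from 4.45e-08 to 0.0452. With wild type replicate 1 or PT-I-PpoI replicate 3 left out, the difference rests on 1 group alone, with a single library in one of its forms that is assumed to vary like the rest. The summed proximal tubule markers separated the forms in the same direction, with 8 of 8 markers above 0, and their part in this difference was not tested. The all-gene count of 428 was 212 without PT-I-PpoI replicate 1, 165 without wild type replicate 2, 124 without wild type replicate 3 and 830 without wild type replicate 1.

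Idi1, the next enzyme among the members, was at 15.4 ± 1.89 against 11.1 ± 0.83 CPM in hyphenated and plain libraries. Its 1.40-fold difference (log2 fold change 0.49 ± 0.13, 95% interval 1.14-fold to 1.72-fold) did not pass (adjusted p = 0.0873). It was 0.72 on the log2 scale within PT-I-PpoI and 0.25 within wild type. Without wild type replicate 1, the 1 plain library of its group, Idi1 was called at 0.72 ± 0.14 (adjusted p = 0.0243). That fit called 5.87% of all genes, and its difference rests on PT-I-PpoI replicate 3 against replicates 1 and 2, with the lone library assumed to vary like the others.

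Dhcr7 was at 20.95 ± 1.27 against 16.9 ± 0.64 CPM, 1.23-fold (adjusted p = 0.152; 95% interval 1.05-fold to 1.45-fold). Sqle was at 63.6 ± 5.12 against 56.1 ± 1.18 CPM, 1.15-fold (adjusted p = 0.209; 95% interval 1.02-fold to 1.30-fold). Srebf2 was at 75.0 ± 5.98 against 66.3 ± 0.55 CPM, 1.11-fold (adjusted p = 0.326). In each of these genes every hyphenated library lay above every plain one, but by less than the test needed.

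Fdft1, Lss and Insig1 overlapped between the forms. Fdft1 was at 30.2 ± 2.89 against 32.8 ± 2.29 CPM, the 1 member with a value below 0, at -0.06 ± 0.08 on the log2 scale. Lss was at 18.2 ± 1.19 against 17.8 ± 1.73 CPM, with a 95% interval from 0.855-fold to 1.23-fold. Insig1 was at 35.2 ± 1.69 against 29.7 ± 12.8 CPM, and the plain libraries held both its highest and its lowest values. Within PT-I-PpoI it was 0.70 higher in hyphenated libraries on the log2 scale, and within wild type the value was -0.35. Without wild type replicate 1 it was called higher in hyphenated libraries (0.69 ± 0.15, adjusted p = 0.0345), again from PT-I-PpoI replicate 3 alone against replicates 1 and 2. With PT-I-PpoI replicate 3 left out the value, which rests on wild type replicate 1 as the lone plain library of its group, was -0.35 (adjusted p = 0.25).

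**Figure D3:**
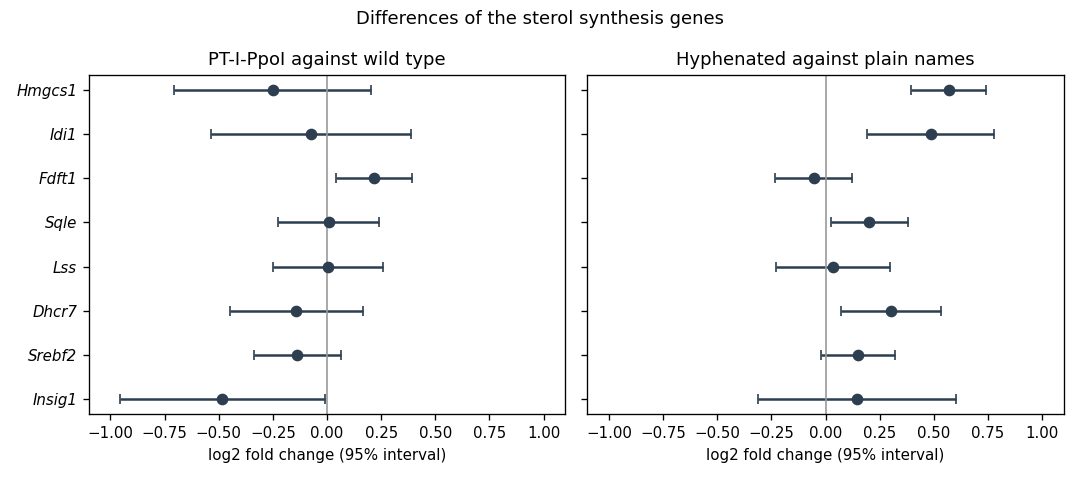
Log2 fold change of each gene with its 95% interval, for PT-I-PpoI against wild type (left) and for hyphenated against plain names with the group as a term (right). On the right Hmgcs1 and Idi1 lie farthest from 0 (0.57 and 0.49), and on the left Insig1 does (-0.48).

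Of 8 genes of the first stage, 2 passed between name forms, Hmgcs1 and Mvd, both higher in hyphenated libraries, against 3.06% of all genes. A value above 0 was found for 7 of the 8 and for 6793 of the 13977 genes tested, and the median of the 8 was 0.37 on the log2 scale. Mvd, which makes isopentenyl diphosphate, was at 42.4, 46.1 and 57.3 CPM in PT-I-PpoI and at 43.9, 56.8 and 56.7 CPM in wild type. The 3 hyphenated libraries were the high ones, and the log2 fold change between forms was 0.37 ± 0.07 (adjusted p = 0.0324). Leaving out PT-I-PpoI replicate 1 or 3, or any 1 wild type library, ended this call (adjusted p from 0.054 to 0.113), and the adjusted p over all alternatives ran from 0.011 to 0.113.

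Of 13 genes of the second stage, 1 passed between name forms, against 3.06% of all genes. A value above 0 was found for 10 of the 13 (median 0.22 on the log2 scale) and for 6793 of the 13977 genes tested. Sc5d, the sterol C5-desaturase that acts just before Dhcr7, was at 29.4, 24.3 and 47.1 CPM in PT-I-PpoI and at 26.1, 46.8 and 49.3 CPM in wild type. Hyphenated libraries were at 47.7 ± 1.37 CPM and plain ones at 26.6 ± 2.59 CPM, 1.80-fold apart (log2 fold change 0.85 ± 0.09, adjusted p = 0.00339). This was the largest difference among the 21 synthesis enzymes, and was called in all 11 alternatives (adjusted p from 4.02e-09 to 0.0176). Cyp51, the lanosterol demethylase, was at 228 ± 9.49 against 156 ± 30.0 CPM (log2 fold change 0.54 ± 0.13, adjusted p = 0.0726). It was called without PT-I-PpoI replicate 1 (adjusted p = 0.0196) or replicate 2 (adjusted p = 0.0464).

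Between PT-I-PpoI and wild type, none of the 21 synthesis enzymes passed by edgeR, where 0.136% of all genes did. Acat2, which makes acetoacetyl-CoA, had a log2 fold change of -0.44 ± 0.16 (adjusted p = 0.348). Without PT-I-PpoI replicate 3 it was -0.65 ± 0.11 and was called (adjusted p = 0.0248), in a fit that called 4.40% of all genes. That fit leaves only plain libraries in PT-I-PpoI, and Acat2 was 0.39 ± 0.09 higher in hyphenated libraries (adjusted p = 0.057). With the name form as a term its group value was -0.33 ± 0.09 (adjusted p = 0.176). Fdps, which makes farnesyl diphosphate, had a log2 fold change of 0.22 ± 0.11 (adjusted p = 0.447).

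**Figure D4:**
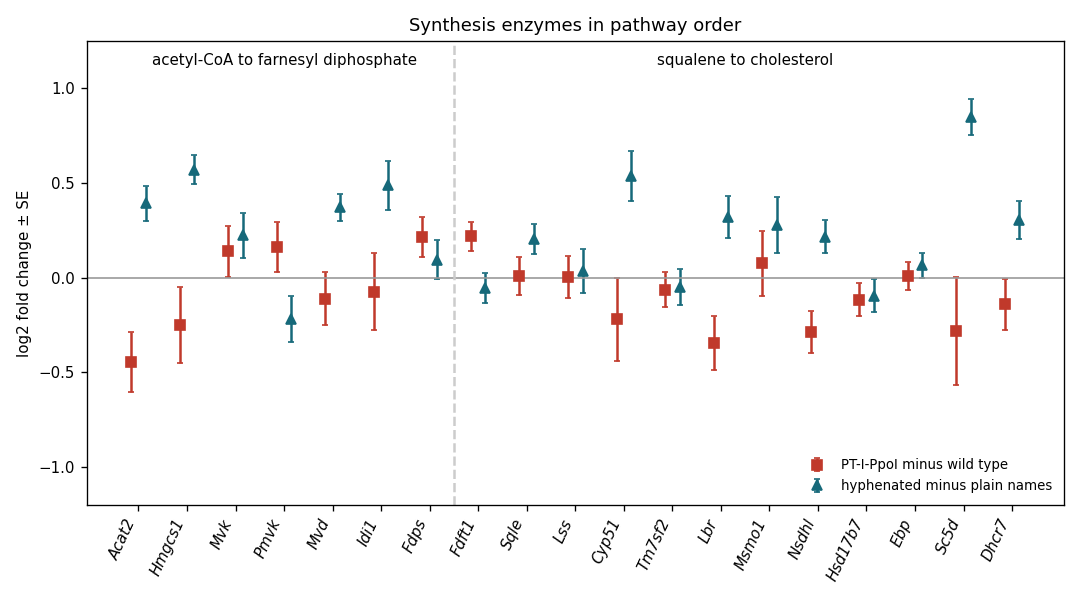
Log2 fold change ± SE of 19 of the 21 synthesis enzymes in pathway order, for PT-I-PpoI minus wild type (squares) and hyphenated minus plain names (triangles); the dashed line separates the stages. The triangles of Hmgcs1 (0.57), Mvd (0.37) and Sc5d (0.85) passed the test, and no square did.

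Around the enzymes, none of the 11 genes that sense sterols or process SREBP proteins passed in either comparison. Of all genes, 0.136% passed between groups and 3.06% between forms. Between forms Scap, the sterol sensor that escorts SREBP2 to the Golgi apparatus, had a log2 fold change of 0.32 ± 0.07 (adjusted p = 0.056), and Rnf145, a ubiquitin ligase of sterol sensing, 0.38 ± 0.09 (adjusted p = 0.0543). DESeq2 called both. Scap was also called without PT-I-PpoI replicate 2 (adjusted p = 0.0421). Without wild type replicate 1 the value of Rnf145 was 0.55, which rests on PT-I-PpoI replicate 3 alone against replicates 1 and 2. Between groups Rnf145 had a value of -0.42 (adjusted p = 0.352), and of -0.63 without PT-I-PpoI replicate 3 (adjusted p = 0.02). Of 8 genes of cholesterol uptake and transport 0 passed. Lipa, the lysosomal acid lipase that frees cholesterol from its esters, had a value of 0.26 between forms (adjusted p = 0.126) and -0.23 between groups (adjusted p = 0.468). Npc1, which exports cholesterol from lysosomes, had 0.20 between groups (adjusted p = 0.420). The exons of Npc1 overlap those of another gene.

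Of 8 genes of cholesterol efflux and the LXR receptors, which respond to oxysterols, 1 passed between forms, against 3.06% of all genes. This was Smpdl3a, a phosphodiesterase, at 0.31 ± 0.07 (adjusted p = 0.0465, or 0.0767 with the name form alone). Abca1, the cholesterol exporter, had a value of 0.57 ± 0.27 between forms (adjusted p = 0.295). It was called without wild type replicate 1 (1.18, adjusted p = 0.0356), a fit in which the difference rests on PT-I-PpoI replicate 3 as a lone library. Between groups Smpdl3a had -0.30 (adjusted p = 0.409) and Apoe, the lipid carrier apolipoprotein E, 0.33 (adjusted p = 0.474). Apoe was called without PT-I-PpoI replicate 3 (0.51, adjusted p = 0.0472), which leaves only plain names in PT-I-PpoI. With the name form as a term its group value was 0.23 (adjusted p = 0.616). Of 6 genes of oxysterols and esterification 1 passed between forms, against 3.06% of all genes. This was Cyp7b1, the oxysterol 7-alpha-hydroxylase, at 242 ± 24.2 CPM in hyphenated against 164 ± 22.4 CPM in plain libraries (adjusted p = 0.0433). In that list Cyp46a1, the cholesterol 24-hydroxylase, had 0.37 between groups (adjusted p = 0.506). Soat2, which esterifies cholesterol, had -0.57 (adjusted p = 0.561) between groups and -0.42 (adjusted p = 0.63) between forms. Its level was low, at a mean of 0.25 RPKM and 5 to 16 read pairs per library. Of 15 genes of fatty acid synthesis, the branch under SREBP1, 9 had a value above 0 between forms and 6 below. Between forms 1 of the 15 passed, against 3.06% of all genes. This was Scd1, a stearoyl-CoA desaturase, which was lower in hyphenated libraries, at 163 ± 29.2 against 280 ± 55.5 CPM (adjusted p = 0.0465), but not by DESeq2 (adjusted p = 0.0913). Pnpla3, a lipase, had -1.28 between forms (adjusted p = 0.107) at a mean of 0.18 RPKM. Between groups Mid1ip1, which binds acetyl-CoA carboxylase, had 0.24 and Me1, the malic enzyme that supplies NADPH, -0.38 (adjusted p = 0.318 each). Me1 was called without PT-I-PpoI replicate 3 (-0.51, adjusted p = 0.0248), again with only plain names left in PT-I-PpoI. With the name form as a term its group value was -0.30 (adjusted p = 0.152). Leaving out single libraries ended each of the calls of Smpdl3a, Cyp7b1 and Scd1, with adjusted p up to 0.173 for Smpdl3a, 0.207 for Cyp7b1 and 0.201 for Scd1. Smpdl3a was lost without any of PT-I-PpoI replicates 1 to 3 and wild type replicates 2 and 3. Cyp7b1 was lost without any of the PT-I-PpoI libraries and without wild type replicate 2. Scd1 was lost without any of the wild type libraries and without PT-I-PpoI replicate 1.

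Of 11 genes of the branch that turns farnesyl diphosphate into other isoprenoids, 0 passed, with Nus1, a subunit of the dolichol-making enzyme, at 0.28 between forms (adjusted p = 0.0706; 0.0149 by DESeq2). Rabggtb and Rabggta, subunits of a prenyl transferase, had 0.27 and -0.16 between groups (adjusted p = 0.395 and 0.436), and Rabggtb -0.24 between forms (adjusted p = 0.141). In all, 6 of the 80 genes of these lists passed between forms, 5 higher and 1 lower, against 3.06% of all genes, and 0 passed between PT-I-PpoI and wild type by edgeR (1 by DESeq2, and 14 at an unadjusted p under 0.05 by edgeR, 3 higher and 11 lower, where 6.42% and 5.61% of all genes were). Without PT-I-PpoI replicate 3, 8 of the 80 passed between the groups, 7 of them lower in PT-I-PpoI, in a fit that called 4.40% of all genes. That fit has no term for the name form and leaves only plain libraries in PT-I-PpoI, so group and form are partly mixed in it. Between forms 17 passed without wild type replicate 1, where 5.87% of all genes did, and 2 without wild type replicate 2, where 1.16% did. On leaving out wild type replicate 3, or PT-I-PpoI replicate 1 or 3, 3 passed, against 0.874%, 1.50% and 2.27% of all genes. On leaving out PT-I-PpoI replicate 2, 6 passed, against 2.58%. Hmgcs1 and Sc5d were among them each time. Without wild type replicate 1 the form difference rests on PT-I-PpoI replicate 3 alone against replicates 1 and 2. Without PT-I-PpoI replicate 3 it rests on wild type replicate 1 as the lone plain library of its group.

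The mean of the 8 genes, each centred on its own mean log2 CPM, was -0.15, -0.17 and 0.15 in PT-I-PpoI and -0.04, 0.11 and 0.10 in wild type. The hyphenated libraries were above 0 and the plain ones below. Among the members, Hmgcs1 and Dhcr7 followed each other most closely over the 6 libraries (Pearson r = 0.973), and Fdft1 ran opposite to Srebf2 (r = -0.80). For Lss and Hmgcs1 r was 0.0050. These coefficients are descriptions over libraries that share the groups and the name forms. The genes outside the 8 whose level followed this mean most closely over the 6 libraries were Igf2r, Entpd7, Ppp1r16b, Limk1, Hbs1l, Sec63, Rap1b and Hes6. Their likeness, a correlation coefficient from 0.991 to 0.999, is given as a description. The libraries share the 2 name forms, and these genes were picked from many with a mean of at least 5 CPM.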

How the data were processed

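The authors deposited raw read pair counts per gene, made with HISAT2 per the labels' protocols and featureCounts 1.5.2 over exons per the file headers, without strand and without replicates pooled. They also deposited regularized log2 values (rlog), and the submitters' processing notes name DESeq2. The header names mm10 and the labels mm9. Of 23159 genes matched by symbol, 99.39% overlapped their GRCm38.p6 (mm10) position, as did 8 of 8 members, against 11.70% of 20805 for NCBIM37 (mm9), so coordinates are mm10.

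Counts were analysed in R 4.3.3 with edgeR 4.0.16: expression filter (minimum count 10), TMM factors, quasi-likelihood test, two-sided, adjusted over all tested genes at a threshold of 0.05. SE is the log2 fold change divided by the root of F, and 95% intervals use the model's degrees of freedom. The name form comparison has the group as a term. Within-form values are differences of mean log2 CPM with a prior count of 2. Alternatives were other size factors, no filter, DESeq2 1.42.0, limma 3.58.1 on the rlog values, other terms, and leaving out each library.

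Members, lists and rules were chosen with earlier results of these data known. Named were all members, list genes that passed, and the 2 of smallest p per list and comparison. Some of these genes are counted but not reported here by name. Likeness considered genes with a mean of at least 5 CPM.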

Additional observations from a re-analysis of the deposited data

Results flagged for a closer look

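Insig1, Idi1 and Dhcr7 are listed because their values moved in opposite directions in the 2 parts of the data, with every library of a part on its side. For Insig1, hyphenated minus plain names was 0.70 on the log2 scale in PT-I-PpoI and -0.35 in wild type, and PT-I-PpoI minus wild type was -0.98 in plain and 0.074 in hyphenated libraries. For Idi1, PT-I-PpoI minus wild type was -0.18 in plain and 0.29 in hyphenated libraries. For Dhcr7 the same difference was 0.081 in plain and -0.15 in hyphenated libraries. Tested as an interaction of group and name form by edgeR's quasi-likelihood test, the adjusted p was 0.0717 for Insig1, 0.351 for Idi1 and 0.609 for Dhcr7, so none passed. Each part rests on a single library for 1 of the groups.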

How the results depend on the processing

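Between PT-I-PpoI and wild type, 0 members were called in each of the 6 alternatives that kept every library, and 0 to 1 when a library was left out. Between name forms 1 member was called in each of the 5 alternatives that kept every library, and 1 to 3 when a library was left out. The members' median log2 fold change ran from -0.183 to -0.0335 between groups and from 0.175 to 0.258 between forms over the fits without 1 library. Over all genes, the 19 group calls became 47 without the expression filter, 194 with DESeq2, 64 with a term for the name form, and 0 to 625 with a library left out, and the 428 form calls became 673 with DESeq2 and 124 to 830. Correlations of deviations between libraries with the same replicate number were 0.219, -0.128 and 0.163. They cannot show whether the replicate numbers of the titles pair the libraries, because these numbers partly follow the name forms. Replicate 1 is plain and replicate 3 hyphenated in both groups, whereas replicate 2 differs in form between them. With the replicate block 40 genes and 0 members were called between groups. Scaling by DESeq2's size factors left the median of all genes at -0.0024 between groups. These values changed sign. Between groups, Lss turned to -3.2e-05 with DESeq2 and -2.1e-05 on the rlog values, and Idi1 to 0.059 with the name form as a term. With a library left out, the group values ran from -0.0445 to 0.0897 for Lss, -0.346 to 0.0598 for Idi1 and -0.0724 to 0.0872 for Sqle. The form values then ran from -0.0422 to 0.126 for Lss, -0.350 to 0.692 for Insig1 and -0.00737 to 1.18 for Abca1. The cause was not tested. The lowest count of a member in a library was 186 read pairs (Idi1), and each group had 3 libraries.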
